A study of Mus musculus with 204 samples.

Results

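The transient receptor potential (TRP) channel genes Trpv1, Trpv2, Trpv4, Trpa1, Trpm8, Trpc1, Trpc4, Trpc5 and Trpc6 were followed through single cells of the mouse myenteric plexus, which lies between the circular and longitudinal muscle of the gut and drives its movements. They were taken by name, and all 9 are among the 49492 gene rows of the deposited table. The cells were taken from VGLUT2-tdTomato mice, distal colon, in which a red protein reports Slc17a6, the gene of the vesicular glutamate transporter VGLUT2. The dissected muscle layers were dissociated and kept in culture overnight, and red cells were then pipetted singly by hand, with 66 cells on each of plates 1 and 2 and 72 cells on plate 3. All cells share that reporter, tissue and culture, and the labels give no treatment, age, sex, animal or number of mice. Groups of cells are therefore read from the transcripts. Neuronal cells are those in which at least 50% of 13 pan-neuronal genes were detected: 54, 44 and 54 cells of plates 1, 2 and 3, or 74.5% of all. The remaining 52 are called other cells. Detected means at least 10 CPM, that is, 10 reads per 1000000 reads of the cell. Within neuronal cells, 56 had Chat without Nos1, 30 had Nos1 without Chat, 50 had both and 16 had neither. Chat encodes the enzyme that makes acetylcholine, and Nos1 the neuronal nitric oxide synthase of inhibitory motor neurons. The labels call every cell a neuron. The 52 other cells did not carry the neuronal list, and markers of smooth muscle, fibroblasts, endothelium and glia were carried by 33, 16, 13 and 9 of them.

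TRP channels are cation channels of the cell membrane that open to temperature, stretch, lipids or chemical ligands. Trpv1 encodes the capsaicin and heat receptor, Trpa1 the receptor for pungent irritants, and Trpm8 the menthol and cold receptor, and all are best known from primary sensory neurons of the spinal and vagal ganglia. Trpv2 and Trpv4 encode channels that respond to stretch or swelling. Trpc genes encode channels that open downstream of receptors coupled to phospholipase C. TRPC6 is gated by diacylglycerol, TRPC4 and TRPC5 form a closely related pair, and TRPC1 assembles with TRPC4 or TRPC5.

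Depth ranged from 453108 to 14310837 reads per cell, with medians of 4181990 in neuronal cells and 3980320 in other cells. By plate the medians were 3445520, 4119090 and 5620220 reads in neuronal cells of plates 1, 2 and 3. In other cells they were 3569870, 4914930 and 1944990 reads, so depth differed most on plate 3. The part of depth in ratios of neuronal over other cells was not tested. The labels name no animal, so cells cannot be counted as replicates and each plate is 1 sample. Column names of the deposited table end in P1 for plate 1, and in P2 for both plate 2 and plate 3. Whether plates 2 and 3 shared mice, a culture or a run is not given, so they may not be independent. No p-value was computed. Intervals are exact 95% (Clopper-Pearson) intervals that cover counting error only. Beside a count of 0 the limit given is 3 cells of the number examined. Differences between groups are read by whether they recur within plates. Counts are of reads, since the kit adds no molecular identifiers. All wells of a plate went through amplification as 1 pool. From genes that a single cell held almost alone, 56.7, 85.03 and 34.1 of 1000000 reads of a gene turned up in each other well of plates 1, 2 and 3. For Trpv2, the most abundant member, that amounts to at most 0.71 CPM in a cell of median depth and 7.13 CPM in the shallowest, both below the detection threshold.

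The 9 genes lie on 6 chromosomes of the mm10 build, as annotated in GENCODE M21. Trpv1 (chr11:73234292-73261242) and Trpv2 (chr11:62574486-62600515) are both on the plus strand of chromosome 11. Trpv4 (chr5:114622152-114658421, minus strand), Trpa1 (chr1:14872648-14918862, minus strand) and Trpm8 (chr1:88277661-88389293, plus strand) follow. The Trpc genes are Trpc1 (chr9:95705082-95750375, minus strand), Trpc4 (chr3:54156035-54318471, plus strand), Trpc5 (chrX:144381671-144688180, minus strand) and Trpc6 (chr9:8544142-8680741, plus strand). Exon lengths, which the RPKM values divide by, ran from 3681 bases for Trpv1 to 8032 bases for Trpc4. Exons of Trpm8 share 388 bases with 4930453O03Rik, so reads there cannot be split, and no other member overlapped another annotated gene.

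Promoters are shown for the members on which the results turn: Trpv2 and Trpc1, detected in most neuronal cells, and Trpc4, found mainly in cells with Nos1 alone. Each run is from RefSeq (GRCm38.p6), reads 5′ to 3′ on the gene's strand and covers 250 bases before the annotated start and 50 after it. Capitals mark the GC box GGGCGG or its reverse complement CCGCCC.
Trpv2 chr11:62574236-62574535 (plus strand): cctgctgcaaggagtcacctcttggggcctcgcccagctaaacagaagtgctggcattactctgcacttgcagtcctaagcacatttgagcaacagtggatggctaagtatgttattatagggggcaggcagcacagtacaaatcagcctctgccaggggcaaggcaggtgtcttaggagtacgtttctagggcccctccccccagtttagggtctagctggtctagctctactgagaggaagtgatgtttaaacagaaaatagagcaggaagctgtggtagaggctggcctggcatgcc
Trpc1 chr9:95750299-95750598 (minus strand): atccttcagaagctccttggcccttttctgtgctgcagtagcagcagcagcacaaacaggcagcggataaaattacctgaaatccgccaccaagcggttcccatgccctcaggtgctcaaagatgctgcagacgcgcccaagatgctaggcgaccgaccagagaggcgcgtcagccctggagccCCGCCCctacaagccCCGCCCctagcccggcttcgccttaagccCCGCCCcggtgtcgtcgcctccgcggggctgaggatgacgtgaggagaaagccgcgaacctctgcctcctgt
Trpc4 chr3:54155807-54156106 (plus strand): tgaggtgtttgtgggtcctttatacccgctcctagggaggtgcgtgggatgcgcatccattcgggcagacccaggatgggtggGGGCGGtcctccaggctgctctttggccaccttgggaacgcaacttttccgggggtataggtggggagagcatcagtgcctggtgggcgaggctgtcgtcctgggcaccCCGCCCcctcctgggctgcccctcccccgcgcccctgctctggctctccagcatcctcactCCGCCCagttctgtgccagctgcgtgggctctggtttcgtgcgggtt
The GC box occurred 3 times in the Trpc1 window, 3 times in the Trpc4 window and 0 times in this Trpv2 window, the first of 3 annotated for the gene. Among all 32851 promoters of that table, 35.7% held it. The letters TATAAA, on either strand, were found once in the Trpc4 window and not in the windows shown for Trpv2 and Trpc1, against 13.6% of all promoters. CpG dinucleotides numbered 2 in the Trpv2 window shown, 22 in Trpc1 and 16 in Trpc4, with a median of 7 over all promoters. The second Trpv2 window held 2 CpG and TATAAA once, and the third held 7 CpG and no TATAAA. Neither held the GC box. RefSeq windows were at hand for 8 of the 9 members. These matches describe letters only.

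Neuronal cells differed widely in which TRP channel they carried. Trpv2 was detected in 88.2% of neuronal cells (interval 81.9 to 92.8%), in 49 of 54, 40 of 44 and 45 of 54 on plates 1, 2 and 3. Trpc1 was detected in 67.1% (59.0 to 74.5%), in 40, 28 and 34 cells of the plates. Trpc6 followed at 34.9% (27.3 to 43.0%), with 17, 16 and 20 cells. Trpc4 reached 13.2% (8.23 to 19.6%), with 2, 9 and 9 cells. The order of these 4 was the same on each plate. The remaining members were rare. Trpv4 was detected in 5 neuronal cells, Trpv1 in 4, Trpa1 in 3 and Trpm8 in 1. No neuronal cell passed the threshold for Trpc5, a count of 0 that allows up to 1.97% by the limit of 3 cells. A neuronal cell had a median of 2 of the 9 genes and at most 4, and 8 neuronal cells had none. Other cells had a median of 1 and at most 2, and 24 of the 52 had none.

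**Figure D1:**
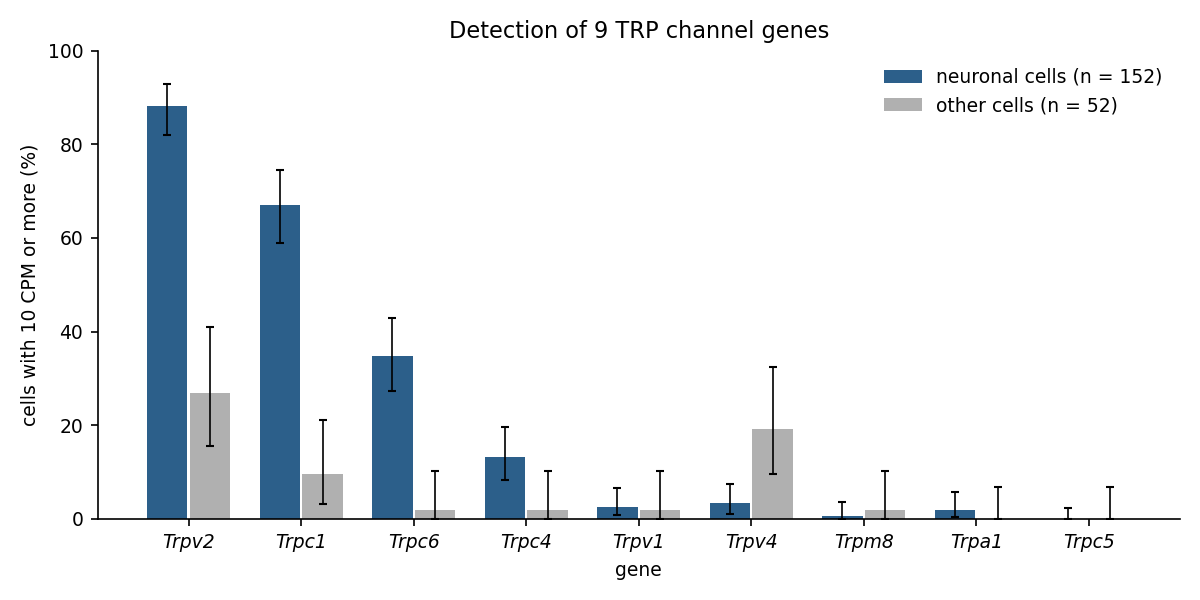
Share of cells with at least 10 CPM of each gene, in neuronal cells (left bar) and other cells (right bar, n = 52), with exact 95% intervals as error bars. Trpv2 stands at 88.2% and 26.9%, Trpc1 at 67.1% and 9.62%, and Trpv4 at 3.29% and 19.2%.

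Per kilobase of exon, which makes genes comparable, the mean RPKM over neuronal cells put Trpv2 first at 33.1 ± 2.31 (SD over the 3 plates). Trpc1 followed at 3.37 ± 0.281 RPKM and Trpc6 at 3.27 ± 1.27 RPKM, and their plate means overlapped. Trpc4 came next at 0.988 ± 0.559 RPKM, then Trpv1 at 0.557 ± 0.550 and Trpv4 at 0.366 ± 0.298 RPKM. Trpm8, Trpa1 and Trpc5 were at 0.127 ± 0.0898, 0.102 ± 0.0894 and 0.00317 ± 0.00435 RPKM. From Trpc4 down to Trpc5 each gene's plate range overlapped that of its neighbour in the order, so that those neighbours cannot be ranked. Trpv2 was separated from Trpc1, and Trpc6 from Trpc4, by plate ranges that did not overlap.

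Trpv2, Trpc1, Trpc4 and Trpc6 had a mean of at least 5 CPM over all cells, the level set for a ratio, and the other 5 members did not. A gene was called where the log2 ratio of mean CPM plus 1 was at least 1 in size and of 1 sign on every plate used. Between neuronal and other cells 21.8% of 13300 genes were called, 16.5% higher in neuronal cells and 5.33% lower. Trpv2, Trpc1 and Trpc4 were among those called higher and Trpc6 was not called. Members met the 5 CPM level mainly through neuronal cells, so this count is a description only.

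Trpv2 had medians of 133.5, 173.7 and 126.5 CPM in neuronal cells of plates 1, 2 and 3, against 0.463, 0.863 and 1.02 CPM in other cells. The highest values were 396.4, 370.03 and 504.4 CPM in neuronal cells, against 42.8, 142.4 and 242.9 CPM in other cells. Levels overlapped at both ends, since 10 neuronal cells had no Trpv2 read and 14 other cells passed the threshold. The log2 ratios were 4.60, 2.50 and 2.39. Of the 14 other cells with Trpv2, 8 were among the 16 that carried the fibroblast list and 2 among the 8 with the leukocyte list. None of the 9 other cells with the glial list had it above 1.33 CPM.

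The 18 neuronal cells without Trpv2 were shallow, with a median of 1184270 reads against 4728030 reads in those with it. They had a median of 10 of the 13 pan-neuronal genes, against 12 where Trpv2 was detected. Cells with neither Chat nor Nos1 made up 9 of the 18, and Nos1-only cells 7. The parts of depth and of cell state in these absences were not tested. After every cell was thinned to 450000 reads, 87.5% of neuronal cells still passed the threshold for Trpv2.

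Trpc1 had medians of 16.6, 16.8 and 17.5 CPM in neuronal cells of the 3 plates, against 0.19, 0.0561 and 0 CPM in other cells. Of the 52 other cells 5 had it, 4 of them on plate 2. The log2 ratios were 3.17, 1.04 and 4.60. The highest other cell, on plate 2, held 160.8 CPM and carried the smooth muscle list. The highest cell on each plate was neuronal, however, with 162.05 CPM in a Nos1-only cell on plate 2. Without those 3 neuronal cells the ratio of plate 2 was 0.85, the mean ratio was 2.80 and Trpc1 was no longer called.

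Trpc6 was more uneven. Its log2 ratios of neuronal over other cells were 3.38 on plate 1 and 4.34 on plate 2, but 0.10 on plate 3. A single other cell of that plate held 308.7 CPM, the highest Trpc6 value of the series, and it carried the list of interstitial cells of Cajal (Kit, Ano1), the pacemaker cells of gut muscle. Detection of 1 of these 2 genes is enough to carry that list, which 9 neuronal and 12 other cells did. Apart from the cell with 308.7 CPM, the remaining 51 other cells had less than 10 CPM of Trpc6. Without the highest cell on each plate the mean ratio was 3.82 and Trpc6 was called higher in neuronal cells. The neuronal cell with the most Trpc6, 222.2 CPM on plate 2, carried the same list and had neither Chat nor Nos1.

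The question of which neurons carry which channel was addressed by setting neuronal cells with Chat alone beside those with Nos1 alone. Plates 2 and 3 could be used, with 17 and 16 Chat-only cells and 14 and 13 Nos1-only cells. Their column names share an ending, so these plates may not be independent. Plate 1 had 23 Chat-only but 3 Nos1-only cells, and its values are given apart. Among 13300 genes, 7.83% were called, 5.38% higher in Chat-only cells and 2.45% lower. Of the 4 members with a ratio, Trpc4 was called lower in Chat-only cells and the other 3 were not called. Trpc4 met the 5 CPM level only through Nos1-only cells, with a mean of 0.339 CPM in Chat-only cells, against 38.2 CPM in Nos1-only cells, so its call is a description and no support. Median depth was lower in Chat-only than in Nos1-only cells, at 4204550 against 5673760 reads on plate 2 and 4986740 against 6885170 reads on plate 3.

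Trpc4 was seen mostly in Nos1-only cells. Its reads passed the threshold in 1 of 56 Chat-only cells (1.79%, interval 0.0452 to 9.55%), against 18 of 30 Nos1-only cells (60.0%, 40.6 to 77.3%). On plate 2 Trpc4 had a median of 0 and a highest value of 17.9 CPM in Chat-only cells, against a median of 18.0 and a highest value of 99.8 CPM in Nos1-only cells. On plate 3 the median was 0 and the highest value 0.128 CPM in Chat-only cells, against 34.2 and 142.9 CPM in Nos1-only cells. Nos1-only cells also reached down to 0 on both plates, so the groups overlapped at the low end. The log2 ratio of Chat-only over Nos1-only cells was -3.93 on plate 2 and -5.49 on plate 3. With so few reads in Chat-only cells the size follows the added 1 CPM, and the mean ratio of -4.71 became -6.69 with 0.1 CPM added and -2.17 with 10 CPM added. On plate 1, Trpc4 was 0 in all 23 Chat-only cells and had 135.01 CPM (77 reads) in 1 of the 3 Nos1-only cells, the other 2 being at 0.

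Cells in which Nos1 was joined by Chat did not follow the Nos1-only cells. Trpc4 was detected in 1 of 50 cells with both, at 12.1 CPM, and in 0 of 16 with neither, which leaves room for up to 18.8% by the same limit. On plates 2 and 3 Nos1 itself was lower where Chat was present. The median of Nos1 was 55.7, 23.8 and 32.7 CPM in cells with both on plates 1, 2 and 3, against 39.03, 683.6 and 1018 CPM in Nos1-only cells. A split at 100 CPM of Nos1, chosen after the values were seen, left 10 cells with both and 23 Nos1-only cells. Trpc4 was detected in 1 of those 10 and in 16 of those 23. Of the 7 Nos1-only cells under 100 CPM of Nos1, 2 had Trpc4.

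**Figure D2:**
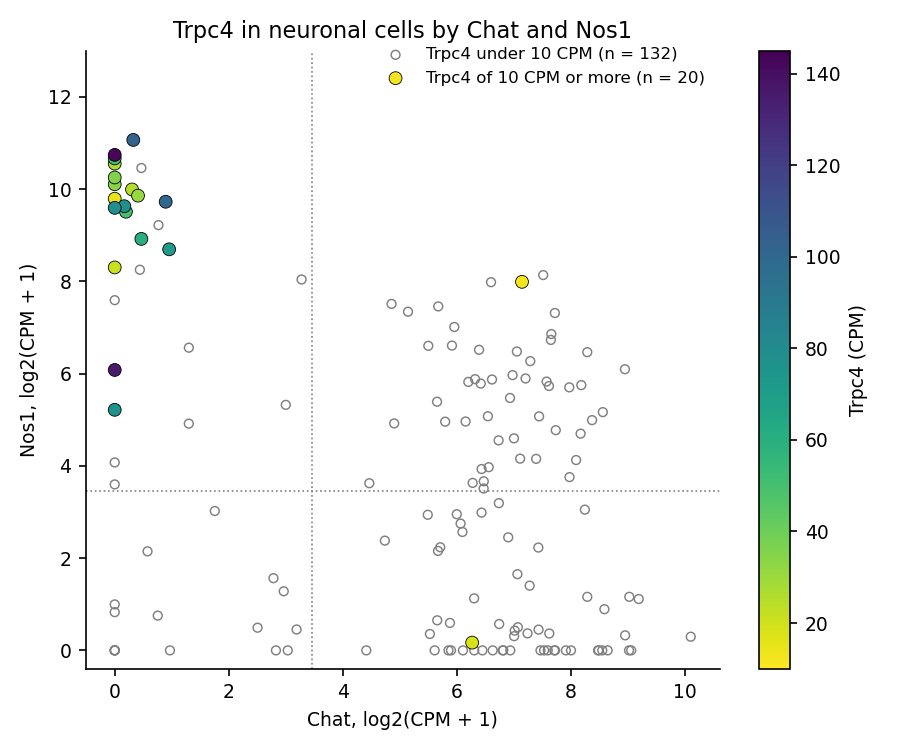
Chat against Nos1, both as log2(CPM + 1), in the neuronal cells, with dotted lines at 10 CPM. Filled points are the 20 cells with at least 10 CPM of Trpc4, coloured by its CPM, and 18 of them lie in the upper left field of 30 cells with Nos1 alone.

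The 18 Nos1-only cells with Trpc4 had a median of 866.04 CPM of Nos1 and 6979090 reads, against 227.2 CPM and 2730220 reads in the 12 without it. Depth and Nos1 level therefore moved with Trpc4 inside the class, and their part in its detection was not tested. After thinning to 450000 reads Trpc4 was still detected in 13.2% of neuronal cells. Among the 56 Chat-only cells 17 carried a non-neuronal list, as did 7 of the 30 Nos1-only cells. The summed smooth muscle list, carried by 13 Chat-only cells, ranged from 1.42 to 16059.8 CPM with a median of 51.3 CPM in that class. In Nos1-only cells, of which 6 carried it, the range was 5.42 to 9069.9 CPM and the median 24.8 CPM. The summed glial list had medians of 14.2 CPM in Chat-only and 1.52 CPM in Nos1-only cells. Among cells without any such list the Trpc4 ratio was as large, at -4.77. In the 20 neuronal cells with Trpc4, 2 carried the smooth muscle list, whose sum ranged from 8.30 to 9069.9 CPM with a median of 17.0 CPM, against a median of 45.9 CPM in all neuronal cells. None of the 20 carried another non-neuronal list. The endothelial sum reached 261.3 CPM, the glial sum 71.1 CPM, the mesothelial sum 30.2 CPM and the fibroblast sum 12.4 CPM. The leukocyte sum had a median of 15.6 CPM and reached 45.5 CPM, against a median of 12.7 CPM in all neuronal cells. Pdgfra of the fibroblast list, Ptprc and Cd3e of the leukocyte list and Upk3b and Wt1 of the mesothelial list were 0 in all 20. Low values of these lists were common, however. Over all neuronal cells 5 of 6 fibroblast, 3 of 6 leukocyte and 3 of 4 mesothelial genes had a median of 0. The part of other cells' RNA was not tested.

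The partner gene Trpc1 was little more frequent in cells with Trpc4 than in all neuronal cells. Trpc1 was detected in 15 of the 20 neuronal cells with Trpc4, against 67.1% of all neuronal cells. The shares within plates would give 12.9 such cells. Those 15 are 14.7% of the neuronal cells with Trpc1. Trpv2 was present in 17 of the 20, against 88.2% of all neuronal cells and 17.5 cells expected within plates. Trpc6 was present in 10, against 34.9% and 7.24 cells expected. A further 3 genes were named after their values were seen. Gal, which encodes the neuropeptide galanin, was detected in 16 of the 20, against 40.1% of all neuronal cells. Vip, which encodes the inhibitory peptide VIP, was detected in 12, against 38.2%, and Chrm2, a muscarinic receptor gene, in 17, against 52.6%. Of the 20 cells with Trpc4, 18 were Nos1-only, so these shares do not part Trpc4 from that class. Trpc6, for example, was in 43.3% of all Nos1-only cells.

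Slc17a6, the gene behind the red reporter, was detected in 89 neuronal cells and in 0 of 52 other cells. It was seldom found together with Trpc4. Trpc4 was detected in 1 of 89 neuronal cells with Slc17a6 (1.12%, interval 0.0284 to 6.10%), against 19 of 63 without it (30.2%, 19.2 to 43.0%). Log2 ratios of cells with Slc17a6 over cells without it were -3.52, -4.24 and -4.32 on plates 1, 2 and 3. Trpc4 was called lower in cells with Slc17a6, as were 1.02% of the 13300 genes. Another 1.31% were called higher, 2.32% in all. Here too Trpc4 met the 5 CPM level through 1 group, with a mean of 0.161 CPM in cells with Slc17a6, against 18.5 CPM in cells without it. Plate 1 rested on the cell with 135.01 CPM. Class and Slc17a6 were bound together here, because 27 of the 30 Nos1-only cells lacked Slc17a6. Restricted to neuronal cells with Chat, where plates 2 and 3 could be used, the ratios were -1.39 and -0.01 and Trpc4 was not called. Trpc4 was detected in 1 of 83 such cells with Slc17a6 and in 1 of 23 without it. The ratio of plate 2 rested on 1 cell at 17.9 CPM, and the means on plate 3 were 0.0428 and 0.0533 CPM. With so few reads a call could hardly arise, so these ratios do not part Slc17a6 from class. In this comparison 4.37% of genes were called, 2.63% higher in cells with Slc17a6 and 1.74% lower.

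Between neuronal and other cells the log2 ratios of Trpc4 were 1.91, 3.47 and 2.17. They rest on few cells: no other cell of plate 1 had a read, and without the highest cell on each plate the mean ratio was 1.78 and Trpc4 was no longer called. The 1 other cell with Trpc4 held 26.9 CPM and carried the smooth muscle and fibroblast lists.

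Trpv2 was present in every class. Its share was 98.2% of Chat-only cells (55 of 56, interval 90.4 to 99.95%), against 76.7% of Nos1-only cells (23 of 30, 57.7 to 90.1%). Of cells with both, 49 of 50 had it, and of those with neither 7 of 16. On plate 2, Trpv2 had a lowest, median and highest value of 54.9, 178.9 and 370.03 CPM in Chat-only cells, against 0, 169.9 and 356.6 CPM in Nos1-only cells. On plate 3 they were 2.16, 163.99 and 504.4 CPM in Chat-only cells, against 0, 221.8 and 320.7 CPM in Nos1-only cells. The groups overlapped over most of their range, and the log2 ratios of the means were 0.51 and 0.12. Where detected, Trpv2 had a median of 174.8 CPM in Chat-only cells, against 207.7 CPM in Nos1-only cells. A difference of mean log2(CPM + 1), in which cells near 0 weigh more, was 1.37. Trpv2 was detected in 86 of 89 neuronal cells with Slc17a6, against 48 of 63 without it, and its log2 ratios of 0.61, 0.24 and 0.52 were below the size for a call. Trpc1 (1.02, -0.56 and 0.16) and Trpc6 (1.39, -0.04 and 0.53) were not called in that comparison either.

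**Figure D3:**
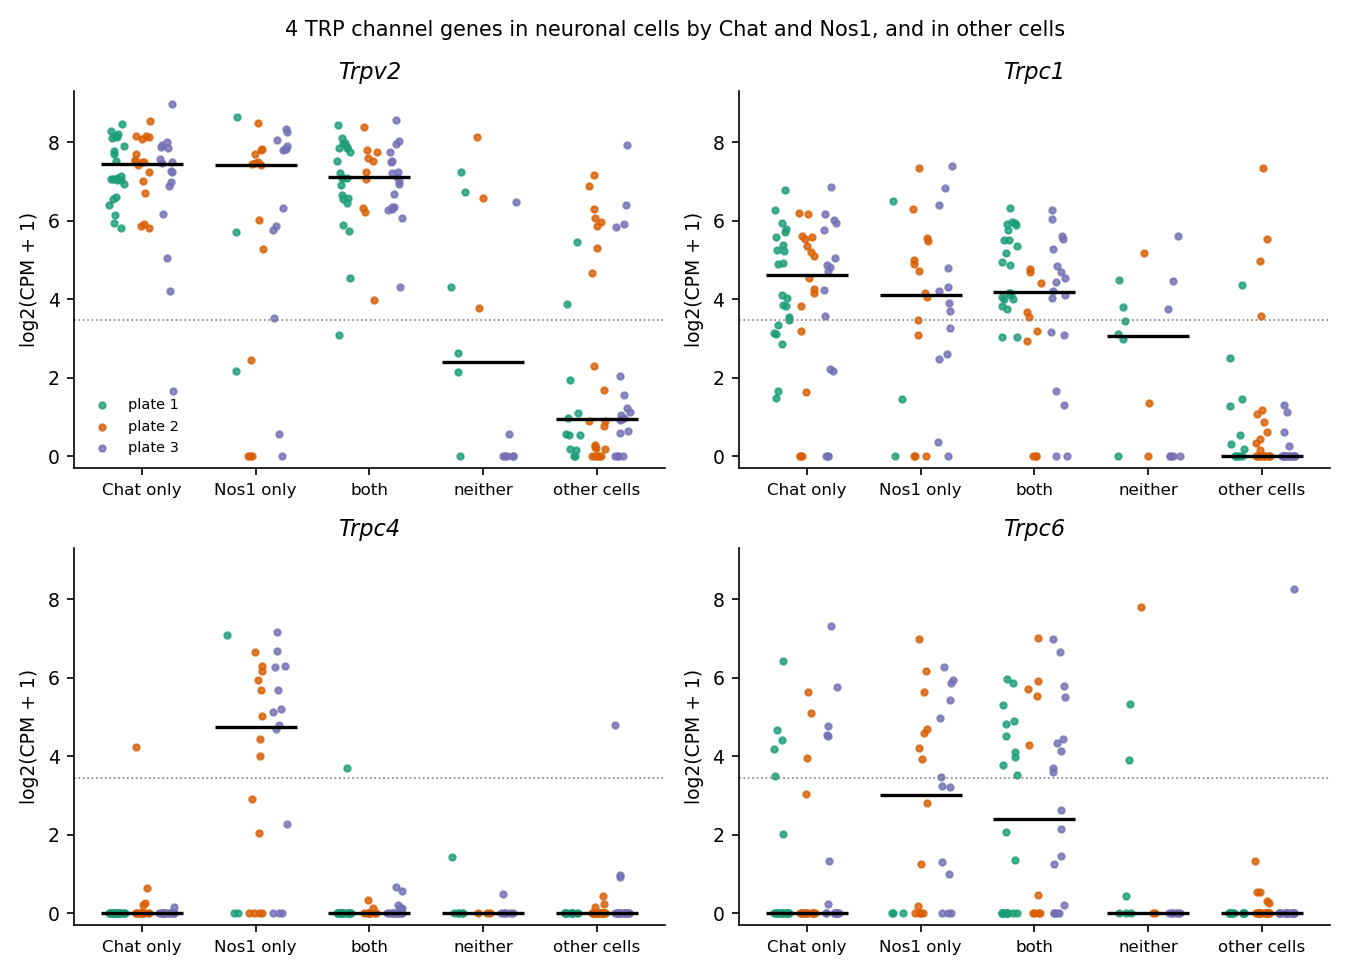
Levels as log2(CPM + 1) of Trpv2, Trpc1, Trpc4 and Trpc6 in neuronal cells by class (56 with Chat only, 30 with Nos1 only, 50 with both, 16 with neither) and in 52 other cells. Each point is 1 cell coloured by plate, bars are medians and the dotted line is 10 CPM; Trpc4 has a median above that line in cells with Nos1 only.

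Trpc1 too was found in every class. The share was 40 of 56 Chat-only cells (71.4%, interval 57.8 to 82.7%), against 19 of 30 Nos1-only cells (63.3%, 43.9 to 80.1%), and 37 of 50 cells with both. Trpc1 medians were 22.1 CPM in Chat-only cells and 20.9 CPM in Nos1-only cells on plate 2. On plate 3 they were 26.2 CPM in Chat-only cells and 13.9 CPM in Nos1-only cells. The highest values belonged to Nos1-only cells, at 168.2 CPM on plate 3 and 162.05 CPM on plate 2. Log2 ratios of -0.25 and -0.18 were small and turned positive, to a mean of 0.29, when the highest cell on each plate was left out.

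Trpc6 was detected in 13 of 56 Chat-only cells (23.2%, interval 13.0 to 36.4%), against 13 of 30 Nos1-only cells (43.3%, 25.5 to 62.6%), and the intervals overlap. Over all plates it was in 24 of 50 cells with both (48.0%, 33.7 to 62.6%). On plate 2 Trpc6 was in 5 of 10 cells with both and 7 of 14 Nos1-only cells. On plate 3 Trpc6 was in 9 of 18 cells with both and 6 of 13 Nos1-only cells. Its median was 0 in Chat-only cells of plates 2 and 3, against 10.2 and 8.55 CPM in Nos1-only cells. The log2 ratios of -1.81 on plate 2 and -0.35 on plate 3 did not make a call. Without the highest cell on each plate the mean ratio was -1.30 and Trpc6 was called lower in Chat-only cells. The direction also depended on the plates taken. In the 3 Nos1-only cells of plate 1 Trpc6 was at 0, while 5 of the 23 Chat-only cells there had it, and with plate 1 included the mean ratio was 0.28.

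The heat and irritant receptor genes were detected in few cells. Trpv1 had 1823 reads in the whole series, of which 1407 (77.2%) lay in 1 neuronal cell of plate 1 at 164.6 CPM. That cell was 1 of 2 that carried the list of extrinsic sensory neurons, and it also carried the fibroblast and endothelial lists. It had 12.9 CPM of Trpa1 as well. The next cells in order among the neuronal ones had 76.1 CPM from 39 reads on plate 2, then 31.2 and 12.8 CPM on plate 1. A single other cell had 37.04 CPM. On plate 3 no cell had a read of Trpv1. Without the cells with the extrinsic sensory list, Trpv1 was detected in 2.00% of neuronal cells, against 2.63% with them.

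Trpa1 was detected in 3 neuronal cells at 22.9, 19.7 and 12.9 CPM and in 0 of 52 other cells, where the limit of 3 cells allows up to 5.77%. All 3 cells had Nos1, against 52.6% of all neuronal cells, and 2 of them lacked Chat. The cell at 12.9 CPM was the one with the extrinsic sensory, fibroblast and endothelial lists. Its Nos1 was 11.1 CPM, just above the threshold. Trpm8 passed the threshold in 1 neuronal cell, at 29.3 CPM from 15 reads in a library of 512155 reads, and in 1 other cell at 17.04 CPM. That neuronal cell was also the one with 39 reads of Trpv1. Reads of Trpm8 below the threshold were wider spread, with 18 neuronal cells holding at least 1. Trpc5 had 24 reads in 3 cells, at most 2.20 CPM, all below the detection threshold.

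**Figure D4:**
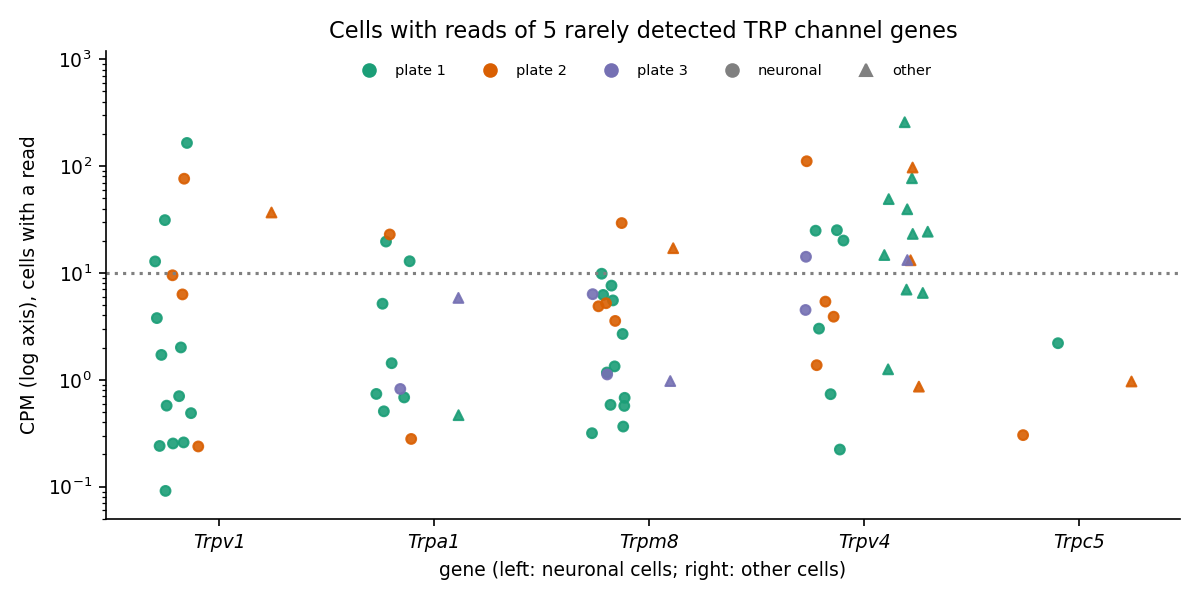
CPM, on a log axis, of every cell with a read of Trpv1, Trpa1, Trpm8, Trpv4 or Trpc5, with neuronal cells as circles on the left of each gene and other cells as triangles on the right, coloured by plate. The dotted line is 10 CPM; Trpv4 has 10 other cells above it and 5 neuronal cells.

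Trpv4 was seen more often in other cells than in neuronal cells. The share was 3.29% of neuronal cells (5 cells, interval 1.08 to 7.51%), against 10 of 52 other cells (19.2%, 9.63 to 32.5%). Of those 10 other cells 7 were on plate 1. Its highest value was 257.2 CPM, in an other cell of plate 1 with the smooth muscle and endothelial lists. Among other cells, Trpv4 was detected in 7 of 13 with the endothelial list (Pecam1, Cdh5, Kdr, Cldn5, Tek), against 3 of 39 without it, and 9 of those 13 were on plate 1. Plate and endothelial RNA cannot be told apart with so few cells. The log2 ratios of neuronal over other cells were -4.17, -0.68 and -0.36, with a mean over all cells of 4.11 CPM, too low for a call. Of the 5 neuronal cells with Trpv4, 4 carried a non-neuronal list, and in neuronal cells without one its share was 0.952%.

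The rest of the TRP family gave a setting for the 9 genes. Of the 19 other family genes, 4 were detected in at least 50% of neuronal cells and 11 in under 10%. Mcoln1, a lysosomal channel gene, was found in 86.2% of neuronal cells, Trpm7, which encodes a channel with a kinase domain, in 76.97%, Pkd2, which encodes polycystin-2, in 61.8%, and Trpm4, a calcium-activated cation channel gene, in 54.6%. The first 3 were also frequent in other cells, at 55.8%, 65.4% and 53.8%. Trpm3, a heat-sensitive channel gene, was detected in 56 neuronal and 3 other cells, and Trpm2, a channel gene activated by ADP-ribose, in 36 and 2. Pkd2l2 was detected in 53 and 8, and Trpc2, the pheromone-transduction channel gene of the mouse, in 12 and 2. All 2874 exon bases of Trpc2 are shared with Xndc1 and Xntrpc, 631 of Pkd2l2 with Fam13b and 628 of Trpm3 with other annotated genes, so these reads cannot be assigned with certainty. Of 9 other family genes with a ratio, 4 were called higher in neuronal than in other cells and 0 lower, beside 16.5% and 5.33% of all genes tested. These genes met the 5 CPM level over all cells, of which 74.5% were neuronal, so this count too is a description only.

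Trpc7, a diacylglycerol-gated relative of Trpc6, was called in the opposite direction to Trpc4 between the classes. Neuronal cells with it numbered 46 and other cells 0 of 52. In Chat-only cells it was found in 17 of 56 (30.4%, interval 18.8 to 44.1%), against 3 of 30 Nos1-only cells (10.0%, 2.11 to 26.5%). Mean CPM was 19.2 in Chat-only cells and 2.00 in Nos1-only cells on plate 2, and 9.96 in Chat-only cells and 3.16 in Nos1-only cells on plate 3, giving log2 ratios of 2.75 and 1.40. The means in Nos1-only cells were below the 5 CPM level on both plates, so the call is a description only. Trpc7 was the 1 gene called among those 9, a share near the 7.83% of all genes, so the count says nothing particular of the family. It was detected in 2 of the 20 neuronal cells with Trpc4.

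**Figure D5:**
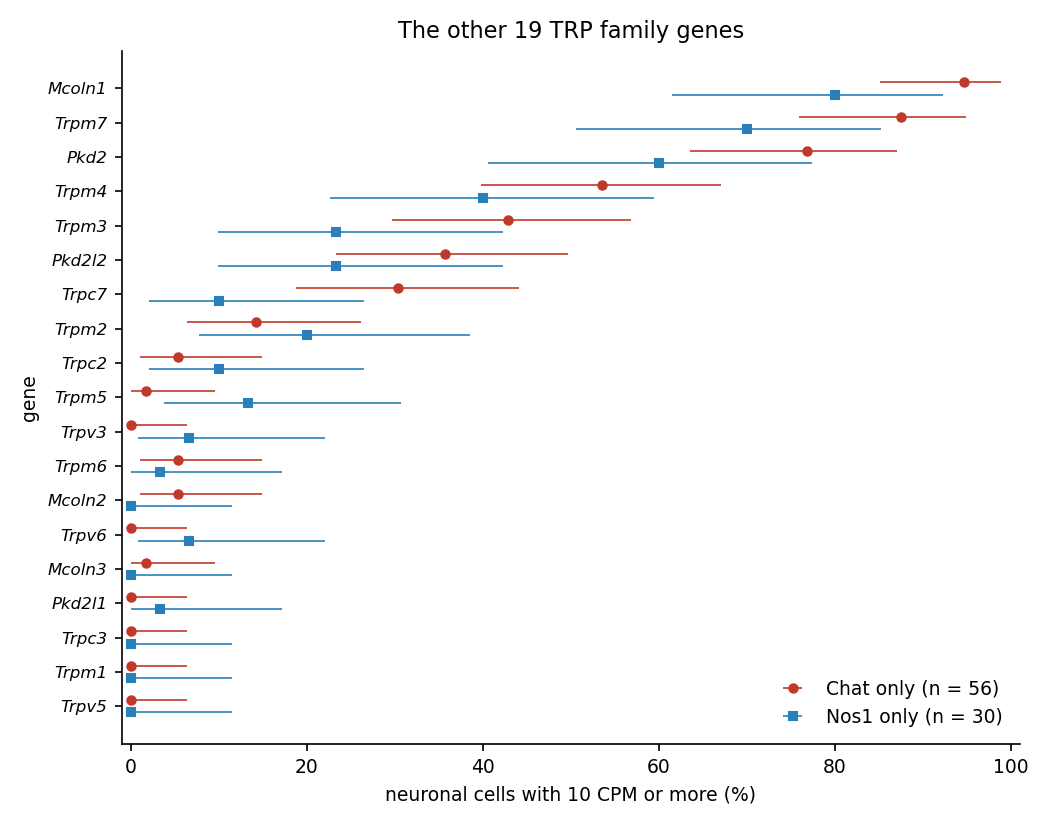
Share, in percent, of neuronal cells with at least 10 CPM of the other 19 TRP family genes, in 56 cells with Chat only (circles, upper) and 30 cells with Nos1 only (squares, lower), with exact 95% intervals. Trpc7 stands at 30.4% and 10.0%.

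Genes that open or feed TRPC channels were present in many neuronal cells and in many other cells. In the list of phospholipase C and store-operated entry, 9 of 18 genes were detected in at least 50% of neuronal cells. The median share of the list was 49.0% in neuronal cells and 40.4% in other cells. Its median log2 ratio of neuronal over other cells was 0.07, against 0.34 for all genes tested. The Gq-class G protein genes Gna11 and Gnaq were in 96.1% and 94.7%, the calcium sensor gene Stim2 in 78.9% and the phospholipase C gene Plcb4 in 78.3%. Of 15 genes with a ratio, Gna14, another Gq-class gene, was called higher in Chat-only cells, with log2 ratios of 5.76 and 1.73, and Plcg2 was called lower, at -1.06 and -1.67, beside 7.83% of all genes called in either direction. Gna14 was found in 22 of the 56 cells with Chat only, against 4 of the 30 with Nos1 only. Plcg2 was in 4 Chat-only and 4 Nos1-only cells, so its ratio rests on few cells. The median log2 ratio of the list between the classes was 0.17, against 0.06 for all genes tested.

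Partners and modulators of TRP channels were common in neuronal cells, with 14 of 19 detected in at least 50% of them. The median share of the list was 86.2% in neuronal cells and 38.5% in other cells. The membrane-trafficking gene Gabarap was detected in 99.3% of neuronal cells and the small GTPase gene Rhoa in 98.03%. Of 17 genes with a ratio, 1 was called between the classes, beside 7.83% of all genes. Tmem100, an adaptor of TRPA1 and TRPV1 in mouse sensory neurons, was found in 36 of the 56 cells with Chat only, against 3 of the 30 with Nos1 only, with log2 ratios of 4.80 and 3.69. Prkca, a protein kinase C gene, had ratios of 0.88 and 1.27 and was not called. The list's median log2 ratio between the classes was -0.12, with 0.03 on plate 2 and -0.14 on plate 3. Pirt, which encodes a regulator of TRPV1 and TRPM8 and was named after its values were seen, was detected in 94.7% of neuronal cells at a median of 692.7 CPM, against 11.5% of other cells. Trpv1 was detected in 4 neuronal cells and Trpm8 in 1.

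Among receptors known to act on TRP channels 16 had a ratio, of which 4 were called higher in Chat-only cells and 1 lower, beside 5.38% and 2.45% of all genes. The median log2 ratio was 0.79, against 0.06 for all genes tested. It was 0.81 on plate 2 but 0.09 on plate 3, against 0.04 and 0.07 for all genes, so the shift did not recur. Those called higher were P2ry1, an ADP receptor gene (ratios 3.99 and 3.45), Hrh1, a histamine receptor gene (4.30 and 2.50), and, outside the naming rule, Ptger3 and Gper1. P2ry1 was found in 25 Chat-only and 7 Nos1-only cells, and Hrh1 in 17 Chat-only and 2 Nos1-only cells. The most frequent of the list were Htr2b, a serotonin receptor gene, in 90.1% of neuronal cells, the cannabinoid receptor gene Cnr1 in 80.3%, the prostaglandin receptor gene Ptger4 in 75.7% and the bradykinin receptor gene Bdkrb2 in 64.5%. Exons of Htr2b share 252 bases with Psmd1, of Ptger4 1097 with other genes and of P2ry1 992 with Gm37035, so their reads are uncertain.

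Genes whose level followed a member most closely were sought over the neuronal cells of each plate (54, 44 and 54 cells), by the mean of the within-plate Spearman correlations of log2(CPM + 1) among 9478 genes. Trpv2 was followed most by Agpat4 (0.60), Slc39a6 (0.57) and Mfsd6 (0.57). The next, Tcaf1 (0.57), named after its value was seen, encodes a TRP channel-associated factor. Trpc1 was followed by Mtss1 (0.48), Kmt5b (0.45) and Zfp638 (0.44), and Trpc6 by Lrrc3 (0.51), Entpd3 (0.50) and Ret (0.49), the last being a neurotrophic receptor gene and one of the 13 genes that define the neuronal cells. Over all candidate genes the median was 0.17 for Trpv2, 0.11 for Trpc1 and 0.09 for Trpc6. The members themselves correlated with depth, at 0.11, 0.31 and 0.52 for Trpv2 on plates 1, 2 and 3, at -0.14, 0.37 and 0.17 for Trpc1, at 0.13, 0.43 and 0.37 for Trpc6 and at -0.31, 0.42 and 0.28 for Trpc4. Cells of a plate share a library pool. With Pearson correlation none of the first 3 genes stayed first for Trpv2 or Trpc1, and all 3 did for Trpc6. For Trpc4, taken in by lowering the required share to 10% after the data were seen, Bves (0.45), Nos1 (0.45) and Zfp536 (0.43) came first, with correlations of 0.06 to 0.25 on plate 1 and 0.48 to 0.65 on plates 2 and 3. With Pearson correlation Plvap (0.62), F2rl2 (0.59) and Zfp536 (0.53) came first for Trpc4. Nos1 then had rank 4 and Bves rank 6, with Bves at -0.05 on plate 1.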

How the data were processed

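Polyadenylated RNA of 204 single cells was sequenced, and the authors deposited 1 table of log2 values, log2(RPKM + 1), with 1 column per cell. The log base and the 1 added before it were inferred from the values themselves. The submitters' processing notes name mm10. Which aligner, counter and strand rule they used is not given in the sources used here. Columns were matched to cells by the labels, and 3 deposited single-cell files repeat columns of the table exactly and were not used apart. RPKM times exon length (GENCODE M21) and total reads gave whole reads (to within 0.0001) for 100% of the 2375655 positive values. For 6321 genes, among them Chat, Trpc7, Trpm3, Pkd2l2, Gna14 and Bdkrb2, the smallest length that gave whole reads replaced it; a longer length would raise their CPM and detection. CPM is recovered reads per 1000000 reads of the cell. No 2 cells of a plate agreed within sampling noise. The 9 members and all gene lists were chosen with earlier results of these data known. A list was carried where 50% of its genes had 10 CPM. Ratios used means within plates with at least 5 cells of each class. A gene could meet the 5 CPM level through 1 group alone, so calls of listed genes are descriptions only. Named were all members, other family genes in at least 25% of neuronal cells and the next 2, and in each further list the 4 most frequent genes and the 2 with the largest class difference of the same sign on the plates used. The steps were tested on simulated cells. Alternatives covered detection thresholds, thinning, pseudocounts, classes, plates and single cells. Python 3.11.15, numpy 2.4.6, scipy 1.17.1 and pandas 2.3.3 were used. A few listed genes are counted in their lists but not reported here by name.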

Additional observations from a re-analysis of the deposited data

How the results depend on the processing

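Shares of neuronal cells kept within 1 binomial interval in 79 of 99 alternatives. At a threshold of 1 read they were 93.4% for Trpv2, 85.5% for Trpc1, 48.0% for Trpc6, 23.7% for Trpc4, 11.8% for Trpm8, 11.2% for Trpv1, 7.89% for Trpv4 and 6.58% for Trpa1. At 50 CPM they were 17.1% for Trpc1, 11.2% for Trpc6, 7.24% for Trpc4, 0.658% for Trpv4, 0% for Trpa1 and 0% for Trpm8. With 75% of the neuronal list required, Trpv2 stood at 92.9% and Trpm8 at 0%. Without cells that carried another list Trpv4 was at 0.952% and Trpm8 at 0%. Trpm8 was at 5.26% at 1 RPKM, and at 0% without plate 2. Thinning to 450000 reads left out no cell.

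Trpc4 was called lower in Chat-only than in Nos1-only cells under every alternative run, from -2.17 with 10 CPM added to -6.69 with 0.1 CPM added. The Trpc1 ratio of these classes was 0.036 as a difference of mean log2, 0.29 without the highest cell on each plate, 0.19 without cells carrying another list and -0.15 with plate 1 included. Trpv2 was at 1.37 as a difference of mean log2. Trpc6 was at -1.60 as a difference of mean log2 and -1.30 without the highest cells, both called, 0.36 where a class needed 4 times as much of Chat as of Nos1, or the reverse, and 0.28 with plate 1, an alternative added after the data were seen. For neuronal over other cells, Trpc1 was no longer called with 10 CPM added (1.41) or without the highest cells (2.80), and Trpc4 with 10 CPM added (0.74), as a difference of mean log2 (0.71) or without the highest cells (1.78). Trpc6 became called as a difference of mean log2 (1.80) and without the highest cells (3.82). Trpv2 stayed called in each. The causes were not tested.

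Genes called higher in Chat-only cells numbered 716 and became 276 with 10 CPM added, 361 with those classes, 363 with plate 1 and 1081 without the filter on low values. Genes called lower numbered 326 and became 140, 78, 94 and 713 in the same order. For neuronal over other cells, 2193 higher became 1289 with 10 CPM added. The 709 lower became 407 with 10 CPM added, 385 as a difference of mean log2 and 469 without the highest cells. The 9 correlations named for Trpv2, Trpc1 and Trpc6 stayed positive with Pearson correlation.

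No paired analysis was possible because the results come from no test and cell numbers only name cells. Reads per cell limit what a share of 0 shows, and detection of Trpc5, Trpa1 and Trpm8 rests on few reads.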
